A study of Mus musculus with 8 samples.

Results

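The genes described here are 39 markers of liver endothelium, chosen by gene symbol from the 35638 genes of the expression table. They are 13 genes of the sinusoidal endothelium, 22 genes shared by most endothelia (pan-endothelial genes), and 4 secreted angiocrine ligands, Wnt2, Wnt9b, Rspo3 and Bmp2. All 39 symbols were found. Their levels were compared between 4 KO and 4 WT liver libraries of mice of a mixed C57/B6 and 129 strain at postnatal day 90. KO livers carried both floxed alleles of Arid1a, whose protein is part of the SWI/SNF complex that moves nucleosomes, together with Alb-cre (Arid1a Fl/Fl; Alb-cre). WT livers carried the same floxed alleles without the transgene (Arid1a Fl/Fl), so both groups share them. The albumin promoter drives Cre in cells of the hepatocyte lineage, and endothelial cells are outside the cells it is meant to act in. Total RNA of whole frozen liver was sequenced, and the deposited values are FPKM, fragments scaled to gene length and to the mapped fragments of a library. Whether the libraries of a group are separate mice is not in the labels, and p-values therefore reflect only how far these libraries spread.

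Liver sinusoids are lined by a specialised endothelium with open pores and no continuous basement membrane. These cells clear waste proteins and small immune complexes from blood through endocytic receptors such as the stabilins. They also secrete ligands to the hepatocytes beside them: Wnt2, Wnt9b and Rspo3 act on the Wnt pathway around the central vein, and Bmp2 takes part in iron control through hepcidin. Larger vessels and continuous capillaries carry other markers, among them Vwf and Cd34, which healthy sinusoids hold at low levels.

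Promoter sequences are shown for 5 members, picked after their values were seen, to set genes with separated groups beside one with none. Kdr, Eng and Flt1 had every KO library above every WT library and hold the letters GGAAGT, a core bound by ETS factors, or their reverse complement ACTTCC. Stab1 also had separated groups, Nrp1 had equal means, and neither holds the letters in this window. Each stretch runs from 250 bases before to 50 bases after the gene's start in RefSeq (GRCm38.p6), 5′ to 3′ on the gene's strand, with the ETS letters in capitals. Kdr lies at chr5:75978406-75978705 on the minus strand, Eng at chr2:32646345-32646644 on the plus strand and Flt1 at chr5:147725962-147726261 on the minus strand. Stab1 lies at chr14:31168592-31168891 on the minus strand and Nrp1 at chr8:128358823-128359122 on the plus strand.
Kdr: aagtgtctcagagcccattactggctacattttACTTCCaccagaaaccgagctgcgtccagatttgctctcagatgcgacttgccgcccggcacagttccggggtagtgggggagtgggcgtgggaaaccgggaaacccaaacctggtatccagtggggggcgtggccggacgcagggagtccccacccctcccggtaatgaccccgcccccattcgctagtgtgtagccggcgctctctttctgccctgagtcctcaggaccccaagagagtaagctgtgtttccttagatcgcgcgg
Eng: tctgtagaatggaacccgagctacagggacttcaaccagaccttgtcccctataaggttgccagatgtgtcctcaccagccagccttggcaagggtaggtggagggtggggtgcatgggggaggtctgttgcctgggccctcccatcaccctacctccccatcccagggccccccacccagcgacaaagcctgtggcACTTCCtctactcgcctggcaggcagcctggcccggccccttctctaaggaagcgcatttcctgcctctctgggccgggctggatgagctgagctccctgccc
Flt1: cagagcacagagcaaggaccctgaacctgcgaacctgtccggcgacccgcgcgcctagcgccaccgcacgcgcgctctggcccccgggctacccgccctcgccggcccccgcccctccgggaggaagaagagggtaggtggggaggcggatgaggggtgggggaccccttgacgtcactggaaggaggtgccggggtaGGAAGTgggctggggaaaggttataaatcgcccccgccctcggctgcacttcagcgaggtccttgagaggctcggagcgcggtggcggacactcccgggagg
Stab1: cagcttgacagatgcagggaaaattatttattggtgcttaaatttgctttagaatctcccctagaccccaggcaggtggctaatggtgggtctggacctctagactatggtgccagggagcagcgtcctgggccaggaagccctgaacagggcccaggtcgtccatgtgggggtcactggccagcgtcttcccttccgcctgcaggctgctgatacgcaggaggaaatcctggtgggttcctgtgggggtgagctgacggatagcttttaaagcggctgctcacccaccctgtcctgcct
Nrp1: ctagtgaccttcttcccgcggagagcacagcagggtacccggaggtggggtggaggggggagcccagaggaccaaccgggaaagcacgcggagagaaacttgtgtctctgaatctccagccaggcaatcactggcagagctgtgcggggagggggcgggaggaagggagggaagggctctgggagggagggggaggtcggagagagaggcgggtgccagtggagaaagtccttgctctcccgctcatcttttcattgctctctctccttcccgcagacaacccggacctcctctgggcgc
RefSeq promoters were matched for 22 of the 39 members, 24 promoters in all. GGAAGT on either strand was in 9 of these (37.5%), against 23.8% of 32851 promoters of the same length. The 8 members holding it were Egfl7, Ehd3, Eng, Fcgr2b, Flt1, Kdr, Mrc1 and Tie1. Of these, Egfl7, Fcgr2b, Mrc1 and Tie1 had overlapping groups. Aqp1, Clec4g, Flt4, Robo4 and Stab1 had separated groups and lack the letters. The letters AGATAA, which GATA factors bind, were in 1 member promoter (4.17%, Tek), against 11.2% of all promoters. The letters ACAATG, which SOX factors bind, were in 1 member promoter (4.17%, Clec4g), against 12.6% of all promoters. Both strands were searched, the promoters printed hold at most 1 of these motifs each, and a match describes letters only.

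Depth, estimated from the steps between low FPKM values, came to 13700000 to 15200000 reads in KO libraries and 12400000 to 13600000 in WT libraries. Arid1a, the targeted gene, had 2.70, 2.86, 3.46 and 2.59 FPKM in KO 1 to KO 4, against 5.16, 8.38, 3.998 and 4.10 FPKM in WT 1 to WT 4. Every KO library was below every WT library (log2 change -0.67, limma Benjamini-Hochberg adjusted p = 0.316). Alb, a hepatocyte gene, reached 23165 to 31604 FPKM in KO and 20104 to 27121 FPKM in WT. This level marks hepatocyte RNA and cannot tell whole liver from isolated hepatocytes. The erythrocyte genes Hba-a1, Hba-a2, Hbb-bs and Hbb-bt were at most 0.267 FPKM in any library. Alas2, the other gene of that list, averaged 2.19 FPKM in KO and 1.99 FPKM in WT. Of the 5 bile duct genes, Krt19, Krt7 and Epcam were at most 0.109 FPKM in KO and listed at 0 in WT. Spp1 averaged 3.66 FPKM in KO and 0.220 FPKM in WT with overlapping groups, and Sox9 was at 0.0157 to 0.123 FPKM in KO, below its 0.134 to 0.462 FPKM in WT. Of the 5 lymphatic endothelial genes, Pdpn, Ccl21a and Mmrn1 were at most 0.126 FPKM in KO and listed at 0 in WT. Prox1, which hepatocytes also express, was at 12.1 to 25.3 FPKM in KO, below its 26.9 to 37.1 FPKM in WT (limma adjusted p = 0.349). Reln, which stellate cells also express, averaged 3.46 FPKM in KO and 1.25 FPKM in WT, with overlapping groups, and the 5 lymphatic genes summed to 24.2 FPKM in KO and 34.0 FPKM in WT.

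Endothelial genes had higher mean levels in KO for 37 of the 39 members, with a median ratio of KO mean to WT mean of 3.39 over the 37 members with a WT level above 0. Gata4 and Nrp1 were the exceptions. In 17 of the 39 members every KO library lay above every WT library, against 3.57% of the 27571 genes detected in any library, and in 0 members did every KO library lie below, against 2.43% of those genes. Differences were tested with limma on log2(FPKM + 1), over the 11266 genes with a mean of at least 1 FPKM. This scale understates the change of low genes. Of the 39 members, 20 passed that minimum and 19 did not. Of the 20 tested, 12 had a WT mean under 1 FPKM and passed through their KO level, so counts over the tested members are a description. Dnase1l3 was the 1 member that passed an adjusted p of 0.05 as higher, against 0.408% of all genes tested, and 0 passed as lower, against 0.355% of all genes tested. At an unadjusted p under 0.05, 18 of the tested members were higher, against 4.99% of all genes, and 0 were lower, against 4.82%. With no filter, the median log2 change was 0.68 over all 39 members, beside 0.0016 over the 27571 detected genes. It was 1.01 over the 20 tested members, beside -0.03 over all genes tested. In whole liver RNA, more endothelial cells, more RNA per endothelial cell and a differing share of non-hepatocyte RNA between libraries cannot be told apart.

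**Figure D1:**
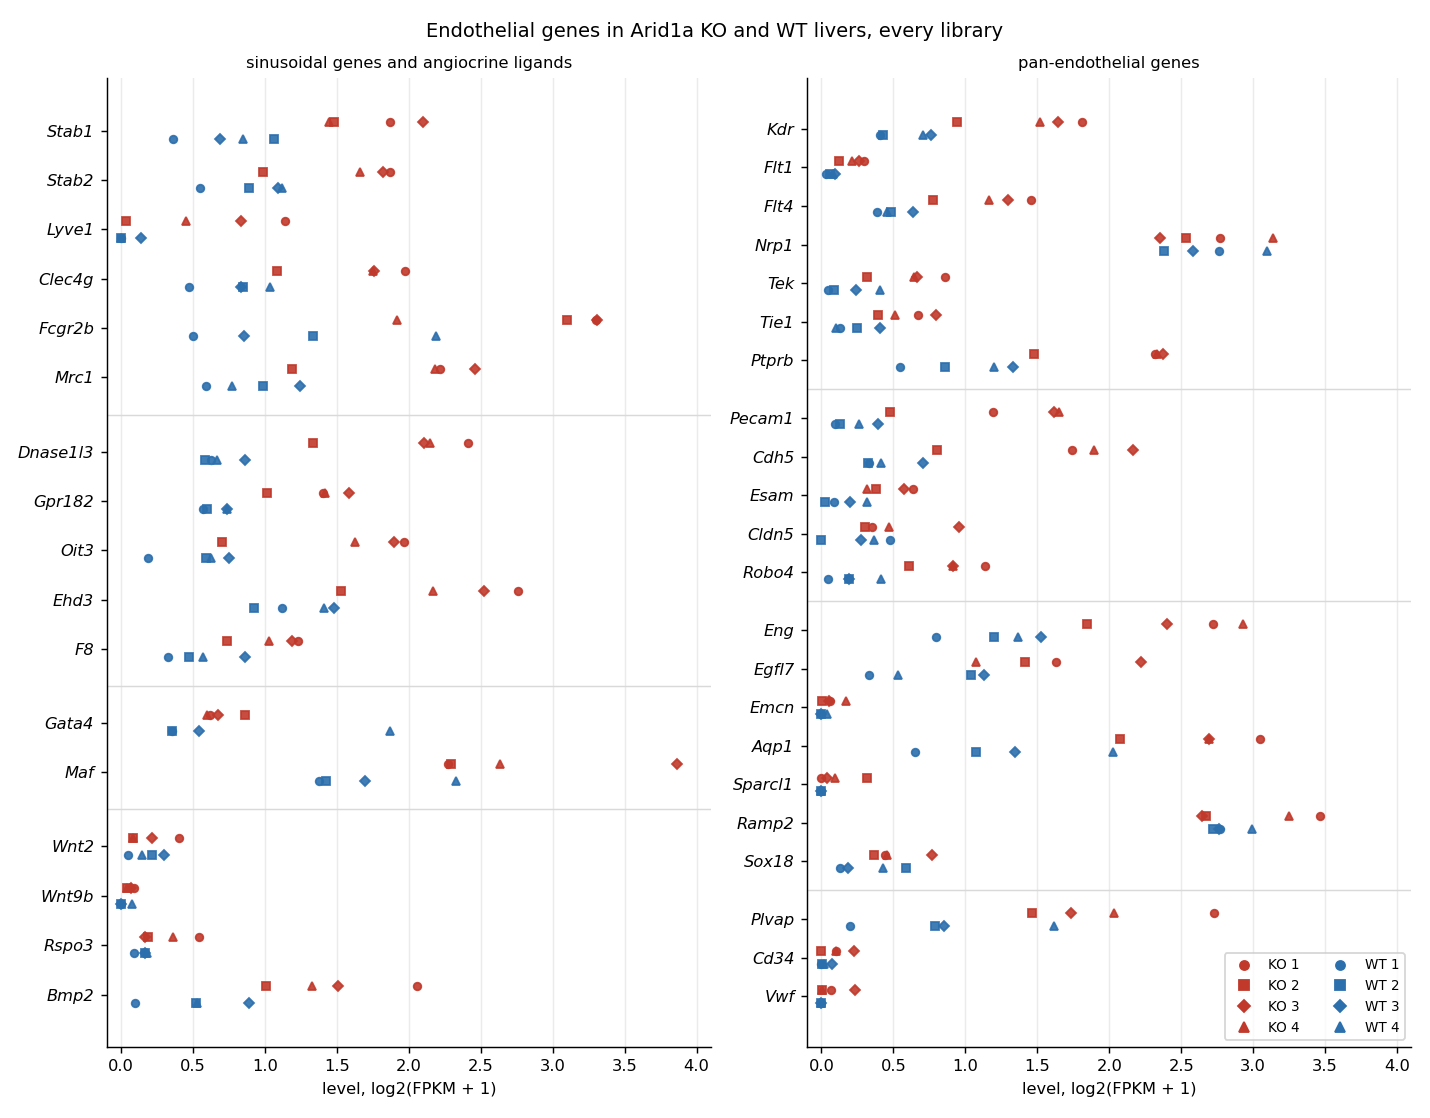
Level of each of the 39 endothelial genes in every library, on the log2(FPKM + 1) scale (x axis), with KO libraries in red above WT libraries in blue for each gene and 1 symbol per library, and grey lines between roles. The red symbols lie to the right of the blue ones without overlap for 17 genes, while Nrp1 and Ramp2 show both groups at the same place.

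Among the endocytic receptors of the sinusoid, Stab1 and Clec4g had separated groups and the other 4 each had 1 KO library within the WT range. Stab1 encodes stabilin-1, a scavenger receptor (chromosome 14, 31139013 to 31168641). It had 2.65, 1.79, 3.28 and 1.73 FPKM in KO 1 to KO 4, against 0.285, 1.09, 0.610 and 0.797 FPKM in WT 1 to WT 4. All KO values were above all WT values, with a log2 change of 0.98 ± 0.22 (SE) that did not pass the test (limma adjusted p = 0.104). Exons of Nt5dc2 lie on the opposite strand at Stab1. Fcgr2b encodes the inhibitory IgG receptor that takes up small immune complexes (chromosome 1, 170958617 to 170976547). It had 8.84, 7.59, 8.91 and 2.78 FPKM in KO, against 0.411, 1.52, 0.811 and 3.55 FPKM in WT. KO 4 was below WT 4, so the groups overlapped, and the log2 change of 1.69 ± 0.42 gave a limma adjusted p of 0.135. B cells and macrophages also express Fcgr2b, and macrophages also express Mrc1.

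Stab2, the stabilin that binds hyaluronan, averaged 2.08 ± 0.764 FPKM in KO and 0.903 ± 0.326 FPKM in WT (SD, n = 4 each), and KO 2 at 0.979 FPKM lay within the WT range. Clec4g, a C-type lectin of sinusoidal cells, averaged 2.20 FPKM in KO and 0.754 FPKM in WT. Mrc1, the mannose receptor, averaged 3.24 FPKM in KO and 0.890 FPKM in WT, and again KO 2 was the KO library within the WT range. The limma adjusted p was 0.360 for Stab2, 0.175 for Clec4g and 0.151 for Mrc1. Lyve1, a hyaluronan receptor, was under the minimum level. It had 1.20, 0.0225, 0.785 and 0.367 FPKM in KO, against listed values of 0, 0, 0.0986 and 0 FPKM in WT. KO 2 was below WT 3, and the exact two-sided permutation p was 0.0571.

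The remaining sinusoidal products were higher in mean in all 5 genes, with separated groups in Dnase1l3, Gpr182 and Ehd3. Dnase1l3 encodes a secreted nuclease that digests DNA in chromatin (chromosome 14, 7964533 to 7994573). It had 4.31, 1.51, 3.30 and 3.43 FPKM in KO, against 0.542, 0.501, 0.818 and 0.584 FPKM in WT. Its lowest KO library, KO 2, was still above the highest WT library, and it rose by a log2 change of 1.31 ± 0.24 (limma adjusted p = 0.0452). Dnase1l3 is one of the members that passed the minimum level through KO, with a WT mean of 0.611 FPKM, and with no filter its limma adjusted p was 0.118. Dnase1l3 was past the threshold in 1 of the 8 fits that each left out 1 library, the one without KO 2 (adjusted p = 0.00834). In the other 7 its limma adjusted p was 0.0848 to 0.132. Gpr182, an atypical chemokine receptor of sinusoidal cells, has a single annotated transcript. It had 1.64, 1.02, 1.99 and 1.67 FPKM in KO, about 89, 62, 108 and 98 reads. In WT it had 0.482, 0.509, 0.666 and 0.668 FPKM, about 24, 27, 36 and 33 reads. Exons of Zbtb39 lie on the opposite strand at Gpr182. These groups did not overlap (log2 change 0.70 ± 0.18, limma adjusted p = 0.144).

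Ehd3, a membrane trafficking gene, averaged 3.97 ± 1.67 FPKM in KO and 1.38 ± 0.415 FPKM in WT, with separated groups (limma adjusted p = 0.175). Oit3, a secreted zona pellucida domain protein gene, averaged 2.08 ± 1.03 FPKM in KO and 0.466 ± 0.231 FPKM in WT, and KO 2 overlapped WT 3 (limma adjusted p = 0.200). F8, which encodes coagulation factor VIII, averaged 1.08 ± 0.309 FPKM in KO and 0.487 ± 0.241 FPKM in WT and was under the minimum level. KO 2 was the lowest KO library in all 5 of these genes.

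The sinusoidal transcription factors did not follow this order of libraries. Gata4, which sets sinusoidal identity in mouse liver, had 0.535, 0.818, 0.598 and 0.511 FPKM in KO, against 0.275, 0.279, 0.454 and 2.65 FPKM in WT. WT 4 alone was above every KO library and the other 3 WT libraries were below every KO library, so the WT mean of 0.915 ± 1.16 FPKM rests on 1 library (KO mean 0.616 ± 0.140 FPKM, exact permutation p = 1). Maf, a basic leucine zipper factor, had 3.83, 3.91, 13.5 and 5.21 FPKM in KO, against 1.60, 1.68, 2.24 and 4.01 FPKM in WT. KO 1 and KO 2 were below WT 4, and the log2 change of 1.06 ± 0.37 did not pass (limma adjusted p = 0.345). Macrophages also express Maf, and hepatocytes express Gata4 at some level.

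**Figure D2:**
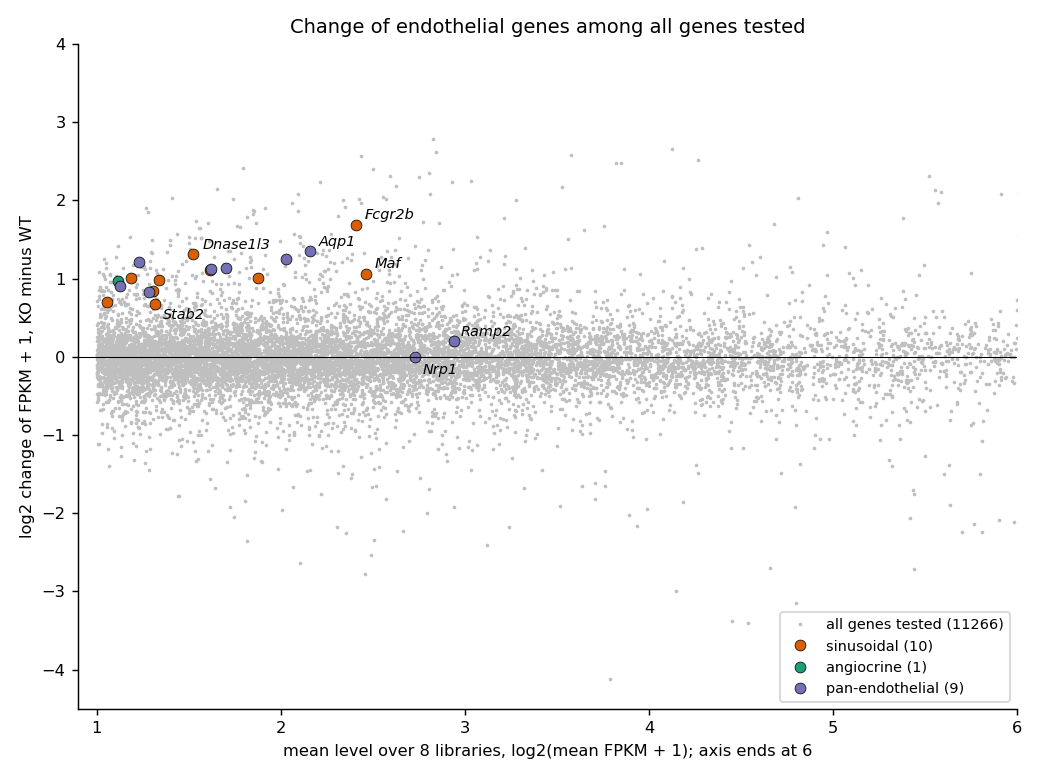
Log2 change of FPKM + 1, KO minus WT (y axis), against mean level over the 8 libraries (x axis) for the 11266 genes tested (grey) and the 20 tested members (coloured by list). The x axis ends at 6. The tested members have a median of 1.01, and Nrp1 at -0.01 and Ramp2 at 0.20, the 2 with the highest mean level, lie lowest.

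All 4 angiocrine ligands had higher means in KO, and Wnt2, Wnt9b and Rspo3 had at most 9.9, 3.9 and 19.3 estimated reads in any library. Bmp2, the ligand made by sinusoidal cells that drives hepcidin, was the one gene of these 4 with separated groups (chromosome 2, 133552159 to 133562885). It had 3.17, 1.01, 1.84 and 1.50 FPKM in KO, against 0.0671, 0.434, 0.850 and 0.440 FPKM in WT. From its single transcript this is about 154, 55, 90 and 79 reads in KO and 3, 21, 41 and 19 reads in WT. Each KO library was above every WT library, and the log2 change of 0.97 ± 0.26 did not pass the test (limma adjusted p = 0.167).

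Wnt2, a ligand of central vein and sinusoidal endothelium, was near the limit of detection. It had 0.322, 0.0579, 0.163 and 0.0590 FPKM in KO, against 0.0341, 0.163, 0.228 and 0.106 FPKM in WT. That is about 10, 2, 5 and 2 reads in KO and 1, 5, 7 and 3 reads in WT, with the groups interleaved (exact permutation p = 0.857). Wnt9b, its partner at the central vein, had 0.0638, 0.0291, 0.0482 and 0.0301 FPKM in KO, about 4, 2, 3 and 2 reads. It was listed at 0 in WT 1 to WT 3 and at 0.0534 FPKM in WT 4, about 3 reads (exact permutation p = 0.114). A difference in Wnt2 or Wnt9b was not detectable at this depth. Rspo3, which amplifies Wnt signals through Lgr receptors, had 0.455, 0.137, 0.121 and 0.285 FPKM in KO, against 0.0661, 0.122, 0.121 and 0.132 FPKM in WT. KO 1, KO 2 and KO 4 were above the WT range, KO 2 by little, and KO 3 was within it (exact permutation p = 0.0857).

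Genes of the Wnt and BMP pathways were read from lists. The Wnt list of 24 genes holds receptors, feedback genes and pericentral genes. It also holds Rspo1, a ligand, and Wls, a carrier that Wnt-secreting cells use. Of the 24, 17 were tested, and 0 passed as higher (0.408% of all genes tested) and 2 as lower (0.355% of all genes tested). In 6 of the 24 (Tbx3, Oat, Notum, Cyp2e1, Rhbg and Slc1a2) every KO library was below every WT library (2.43% of detected genes). In 1, Wls, every KO library was above (3.57% of detected genes). Tbx3, a transcription factor of pericentral hepatocytes, fell to 1.14 ± 0.457 FPKM in KO, against 6.16 ± 1.20 FPKM in WT (log2 change -1.75 ± 0.21, limma adjusted p = 0.00649). Oat, ornithine aminotransferase of the pericentral zone, fell to 16.5 ± 4.96 FPKM in KO, against 85.6 ± 42.3 FPKM in WT (log2 change -2.25 ± 0.32, limma adjusted p = 0.0162). Tbx3 kept its call in the 8 fits without 1 library, and Oat lost it without KO 3 and without KO 4 (limma adjusted p = 0.0555 and 0.0577). Cyp2e1, Axin2, Notum and Lgr4 of this list are given after their values were seen. Cyp2e1, a pericentral cytochrome P450, averaged 388 ± 266 FPKM in KO and 1315 ± 338 FPKM in WT (limma adjusted p = 0.0748). Axin2, a general feedback target of Wnt, averaged 0.795 ± 0.0937 FPKM in KO and 1.11 ± 0.347 FPKM in WT (exact permutation p = 0.114). Notum, a secreted Wnt inhibitor, averaged 7.78 ± 2.46 FPKM in KO and 15.9 ± 2.19 FPKM in WT (limma adjusted p = 0.114). Lgr4, a receptor for R-spondins, averaged 9.92 ± 6.87 FPKM in KO and 6.83 ± 2.97 FPKM in WT.

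Of the 21 listed BMP receptor, target and ligand genes, 19 were matched by symbol, 15 were tested and 0 passed in either direction. Hfe2, which encodes the BMP coreceptor hemojuvelin, had the smallest p of the 15 tested. It averaged 16.1 ± 4.47 FPKM in KO and 9.22 ± 2.29 FPKM in WT (limma adjusted p = 0.302). Hamp, which encodes hepcidin and responds to BMP ligands, averaged 1569 ± 548 FPKM in KO and 1267 ± 372 FPKM in WT (limma adjusted p = 0.889), with overlapping groups. Bmp6, the other sinusoidal BMP ligand of iron control, had 1.09, 0.323, 1.17 and 0.690 FPKM in KO, against 0.293, 0.0622, 0.153 and 0.162 FPKM in WT. Its groups were separated as those of Bmp2 were, and it was under the minimum level (exact permutation p = 0.0286, the smallest that 70 splits allow). Gdf2, also under the minimum level, averaged 0.977 ± 0.277 FPKM in KO and 0.313 ± 0.234 FPKM in WT. Bmp6 and Gdf2 were the 2 of the 19 with every KO library above every WT library (3.57% of detected genes). In 0 was every KO library below (2.43% of detected genes). Hamp, Bmp6 and Gdf2 are given after their values were seen.

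**Figure D3:**
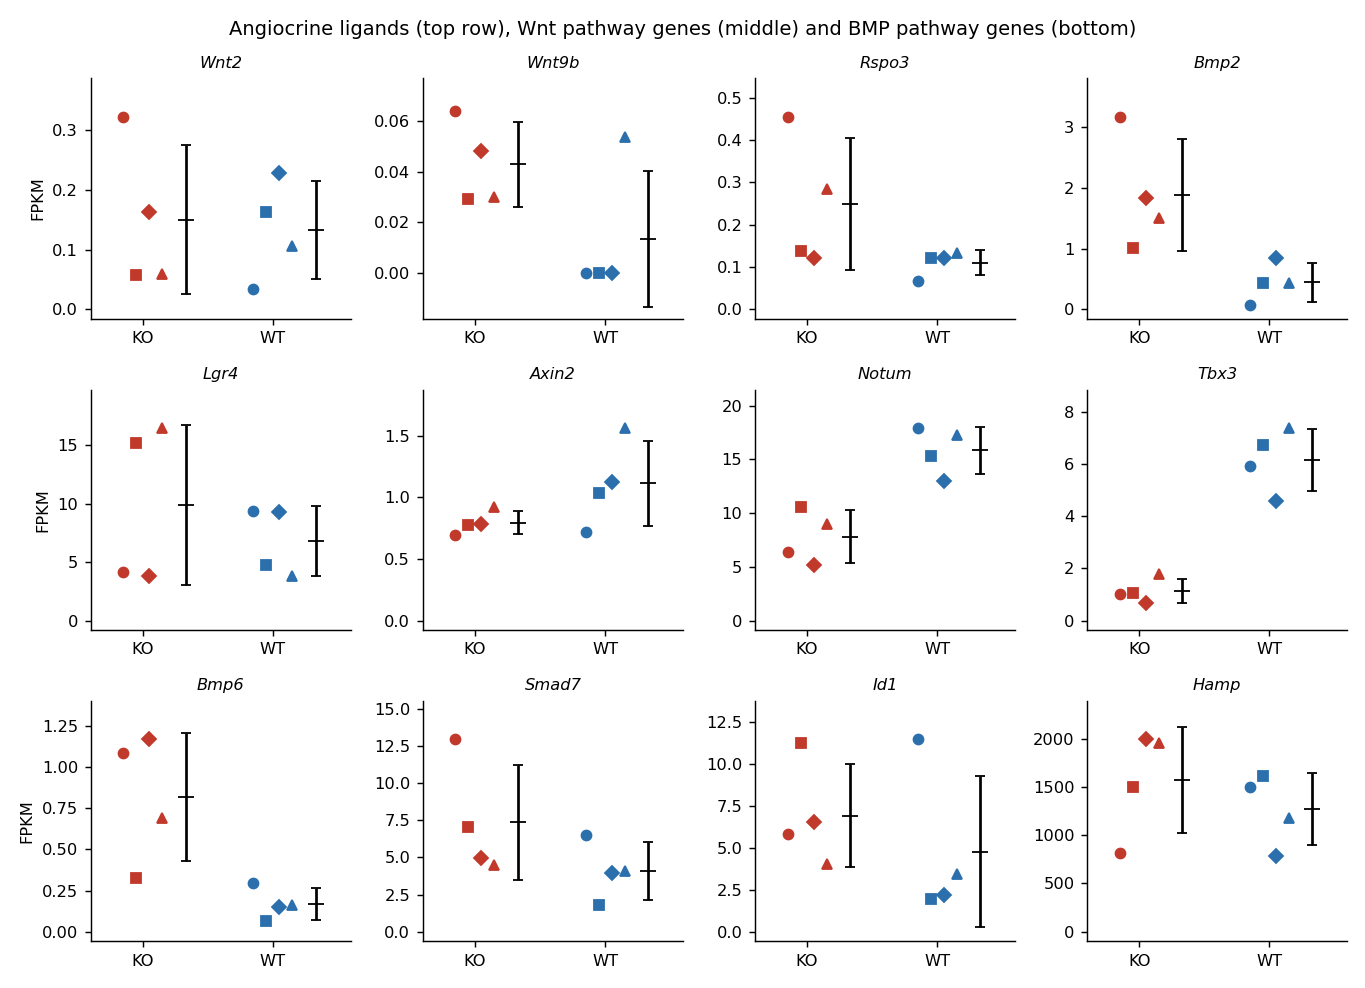
FPKM (y axis, a scale for each gene) of the 4 angiocrine ligands, 4 Wnt pathway genes and 4 BMP pathway genes in KO (red, left) and WT (blue, right) libraries; symbols mark libraries 1 to 4 in each group as circle, square, diamond and triangle, and bars give mean ± SD. Bmp2 and Bmp6 are separated upward in KO, Tbx3 and Notum downward, and Wnt2 and Hamp overlap.

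The receptors for VEGF and angiopoietins were higher in mean in KO in 6 of 7 genes, and Nrp1 stood apart from them. Kdr encodes VEGF receptor 2, the main signalling receptor for VEGF-A (chromosome 5, 75932827 to 75978458), and is one of the genes whose promoter is shown. It had 2.52, 0.921, 2.13 and 1.87 FPKM in KO, against 0.329, 0.347, 0.692 and 0.627 FPKM in WT. The groups did not overlap, with KO 2 the lowest of its group (log2 change 0.91 ± 0.22, limma adjusted p = 0.130). Ptprb, the endothelial phosphatase that acts on Tie2 and VE-cadherin, had 3.98, 1.78, 4.18 and 4.03 FPKM in KO, against 0.462, 0.816, 1.51 and 1.30 FPKM in WT. KO 2 was again the lowest KO library and still above every WT library (log2 change 1.14 ± 0.26, limma adjusted p = 0.110).

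Flt1, VEGF receptor 1, averaged 0.167 ± 0.0599 FPKM in KO and 0.0464 ± 0.0204 FPKM in WT. Flt4, VEGF receptor 3, averaged 1.29 ± 0.436 FPKM in KO and 0.407 ± 0.107 FPKM in WT. Both had separated groups and were under the minimum level. Tek, which encodes Tie2, averaged 0.551 ± 0.234 FPKM in KO and 0.151 ± 0.134 FPKM in WT. Tie1, its orphan partner, averaged 0.517 ± 0.183 FPKM in KO and 0.170 ± 0.115 FPKM in WT. Tek and Tie1 each had 1 KO library, KO 2, within the WT range.

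Nrp1, a coreceptor for VEGF-A and semaphorins that hepatocytes and other cells also express, showed no such offset (chromosome 8, 128358604 to 128503363). It had 5.83, 4.80, 4.10 and 7.79 FPKM in KO, against 5.80, 4.21, 4.99 and 7.55 FPKM in WT. The values interleaved, with means of 5.63 ± 1.61 FPKM in KO and 5.64 ± 1.43 FPKM in WT and a log2 change of -0.01 ± 0.23 (limma adjusted p = 0.997). On the ligand side, 8 of the 9 listed VEGF and angiopoietin ligand genes were matched by symbol, 2 were tested and 0 passed. Of the 2 tested, Vegfb had the smaller p, at 6.53 ± 0.468 FPKM in KO and 5.31 ± 0.576 FPKM in WT (limma adjusted p = 0.674). Means were higher in KO for 2 of the 8, Vegfb and Angpt2, and lower for 4. Angpt2, under the minimum level, averaged 0.322 ± 0.122 FPKM in KO and 0.107 ± 0.0903 FPKM in WT, with overlapping groups (exact permutation p = 0.0857).

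The junction and adhesion genes had the highest median ratio among the role groups, 5.36 over 5 genes, with separated groups in 4. This ranking depends on the measure, as 4 of the 5 were under the minimum level. On the log2(FPKM + 1) scale their median change was 0.68, below 1.01 for the other sinusoidal products and 0.91 for the endocytic receptors. Cdh5 encodes VE-cadherin, the adhesion protein of endothelial adherens junctions (chromosome 8, 104101625 to 104144511). It had 2.34, 0.743, 3.48 and 2.71 FPKM in KO, against 0.258, 0.252, 0.630 and 0.330 FPKM in WT. No KO library reached down to the WT range (log2 change 1.21 ± 0.28, limma adjusted p = 0.116). Robo4, an endothelial roundabout receptor, had 1.20, 0.522, 0.883 and 0.883 FPKM in KO, against 0.0339, 0.143, 0.143 and 0.330 FPKM in WT. It was under the minimum level, with separated groups (exact permutation p = 0.0286).

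Pecam1, which encodes CD31, had 1.28, 0.393, 2.06 and 2.15 FPKM in KO, against 0.0671, 0.0956, 0.313 and 0.200 FPKM in WT. Its ratio of means, 8.71, was the highest among members with a WT mean of at least 0.1 FPKM. Esam, an endothelial adhesion molecule, averaged 0.398 ± 0.149 FPKM in KO and 0.118 ± 0.09997 FPKM in WT, and KO 4 at 0.245 FPKM and WT 4 at 0.243 FPKM all but touched. Cldn5, the endothelial claudin, averaged 0.458 ± 0.328 FPKM in KO and 0.222 ± 0.166 FPKM in WT, with overlapping groups (exact permutation p = 0.286). Pecam1, Esam and Cldn5 were under the minimum level.

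Of the remaining pan-endothelial genes, Eng and Aqp1 had separated groups. Eng encodes endoglin, a coreceptor for BMP9 and TGF-beta (chromosome 2, 32646595 to 32682669). It had 5.60, 2.59, 4.28 and 6.62 FPKM in KO, against 0.740, 1.30, 1.87 and 1.58 FPKM in WT. The log2 change of 1.25 ± 0.27 did not pass (limma adjusted p = 0.0866), although no values overlapped. Exons of Fpgs lie on the opposite strand at Eng, and the use of strand in counting is not given in the sources used here. Aqp1, a water channel of endothelium that bile duct cells also express, had 7.29, 3.20, 5.46 and 5.48 FPKM in KO, against 0.572, 1.10, 1.54 and 3.08 FPKM in WT. Its closest values were KO 2 and WT 4 (log2 change 1.35 ± 0.31, limma adjusted p = 0.110).

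Ramp2, the partner of the adrenomedullin receptor, had 10.05, 5.38, 5.24 and 8.49 FPKM in KO, against 5.81, 5.61, 5.78 and 6.94 FPKM in WT. KO 2 and KO 3 were below every WT library while KO 1 and KO 4 were above every one (log2 change 0.20, limma adjusted p = 0.876). Exons of Vps25 overlap Ramp2 on the same strand, so reads of the pair may be shared. Egfl7, a secreted endothelial matrix protein gene whose exons overlap Agpat2 on the opposite strand, averaged 2.13 ± 1.09 FPKM in KO and 0.736 ± 0.453 FPKM in WT (limma adjusted p = 0.329). Sox18, an endothelial transcription factor, averaged 0.430 ± 0.187 FPKM in KO and 0.269 ± 0.191 FPKM in WT. Emcn, which encodes endomucin, and Sparcl1, a matrix protein gene, averaged under 0.1 FPKM in both groups, and Sparcl1 was listed at 0 in all 4 WT libraries.

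Markers of continuous capillaries and large vessels were low in both groups except Plvap. Plvap, which forms the diaphragms of fenestrae and caveolae, had 5.64, 1.75, 2.33 and 3.10 FPKM in KO, against 0.145, 0.729, 0.803 and 2.06 FPKM in WT. KO 2 was below WT 4 (log2 change 1.13 ± 0.35, limma adjusted p = 0.250). Cd34, a sialomucin of capillary endothelium, had 0.0700, 0, 0.168 and 0.0736 FPKM in KO, against 0, 0.00102, 0.0539 and 0.0120 FPKM in WT, with overlapping groups (exact permutation p = 0.143). Vwf, which encodes von Willebrand factor, had 0.0454, 0.00428, 0.174 and 0.00385 FPKM in KO and was listed at 0 in all 4 WT libraries. In KO, where the sinusoidal genes Stab1 and Dnase1l3 averaged 2.36 and 3.14 FPKM, Cd34 and Vwf reached at most 0.168 and 0.174 FPKM.

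The size of the offset differed between KO libraries. Over the 34 members with a mean of at least 0.1 FPKM, the median ratio to the WT mean was 4.11 in KO 1, 1.74 in KO 2, 4.10 in KO 3 and 2.96 in KO 4. KO 2 was above every WT library in 19 of these 34 members, and KO 1, KO 3 and KO 4 in 29, 29 and 28. Over all 39 members, KO 2 was the lowest KO library in 28 and WT 1 was the lowest WT library in 26. Without KO 2, 27 members had separated groups, against 6.84% of detected genes. Of the 11266 genes tested, 90 then passed the limma test as higher, and 8 of these were members (Mrc1, Dnase1l3, Oit3, Ehd3, Kdr, Ptprb, Cdh5 and Eng). Without WT 4, 24 members had separated groups, against 5.73% of detected genes, and Aqp1 was the 1 member among 36 genes that passed as higher (limma adjusted p = 0.0459). With both of these libraries left out, 31 members had separated groups, against 9.62% of detected genes, and 5 were among the 71 genes that passed as higher (Dnase1l3, Oit3, Ptprb, Cdh5 and Aqp1). The choice of these 2 libraries followed a look at the values. KO 2 was the lowest KO library in most members, so leaving it out raises these counts by itself. Each of these fits tested 11266 genes. Of the 20 members in them, 12 had passed the minimum level through KO, so their calls are a description.

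**Figure D4:**
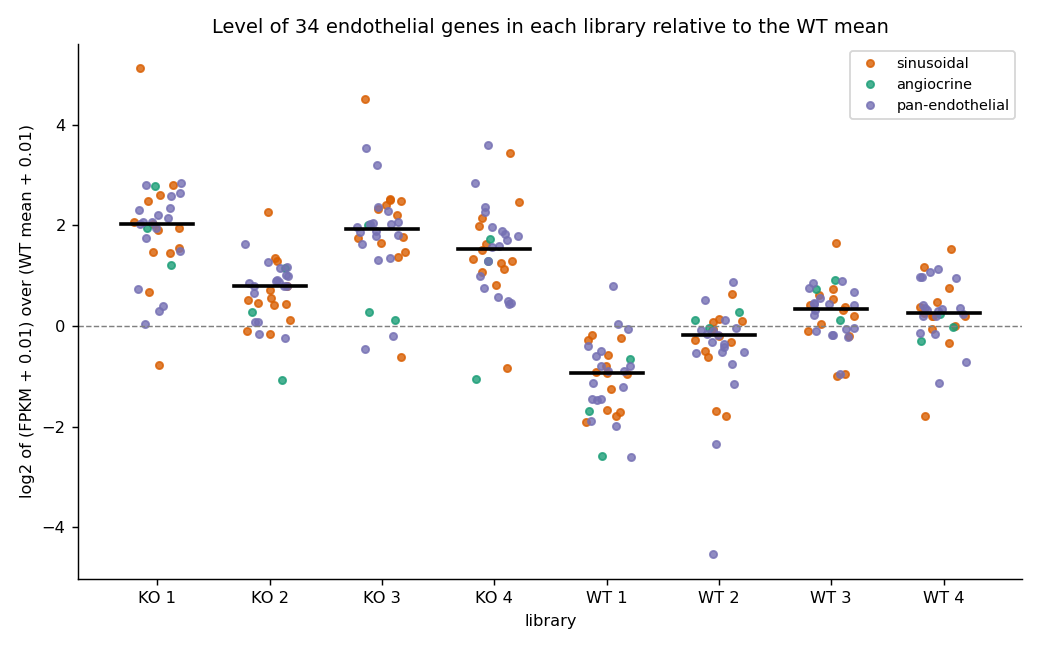
Log2 of (FPKM + 0.01) over (WT mean + 0.01) for 34 endothelial genes (y axis) in each of the 8 libraries (x axis), coloured by list, with black bars at the medians and a dashed line at 0. The KO medians are 2.02, 0.79, 1.92 and 1.54, with KO 2 lowest, and the WT medians run from -0.93 in WT 1 to 0.34 in WT 3.

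Summed over the 13 sinusoidal genes, levels were 42.3, 23.2, 50.5 and 30.4 FPKM in KO, against 6.52, 9.99, 12.3 and 17.9 FPKM in WT. Every KO sum was above every WT sum, a ratio of means of 3.14. The 22 pan-endothelial genes summed to 52.6, 26.2, 43.3 and 47.9 FPKM in KO, against 15.5, 16.9, 21.1 and 26.2 FPKM in WT, a ratio of 2.13, and KO 2 did not reach WT 4. Without Nrp1 and Ramp2, which hold much of the WT sum, the ratio was 3.58 and the sums were 16.0 to 36.7 FPKM in KO and 3.87 to 11.7 FPKM in WT. Markers of other cells of the sinusoid were also higher in the KO libraries. The 14 Kupffer cell and macrophage genes all had higher means in KO, 12 with every KO library above every WT library (3.57% of detected genes), and summed to 24.0 to 172 FPKM in KO and 7.49 to 17.0 FPKM in WT. KO 2 was the lowest KO library in all 14. The 15 stellate cell and fibroblast genes all had higher means in KO, 10 with every KO library above every WT library (again beside 3.57% of detected genes). They summed to 15.8 to 32.3 FPKM in KO and 3.25 to 8.26 FPKM in WT. Their library order differed, with KO 3 the lowest KO library in 7 of the 15 and KO 2 in 6. The 5 bile duct genes summed to 0.527 to 6.82 FPKM in KO, mostly Spp1, and to 0.269 to 0.792 FPKM in WT, where Sox9 and Spp1 made it up, with overlapping groups. The part of these cells in the levels of shared genes such as Mrc1, Fcgr2b, Maf and Aqp1 was not tested. The 10 matched hepatocyte genes summed to 36996 to 55594 FPKM in KO and 34014 to 48358 FPKM in WT, with a ratio of 1.10 and overlapping groups.

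**Figure D5:**
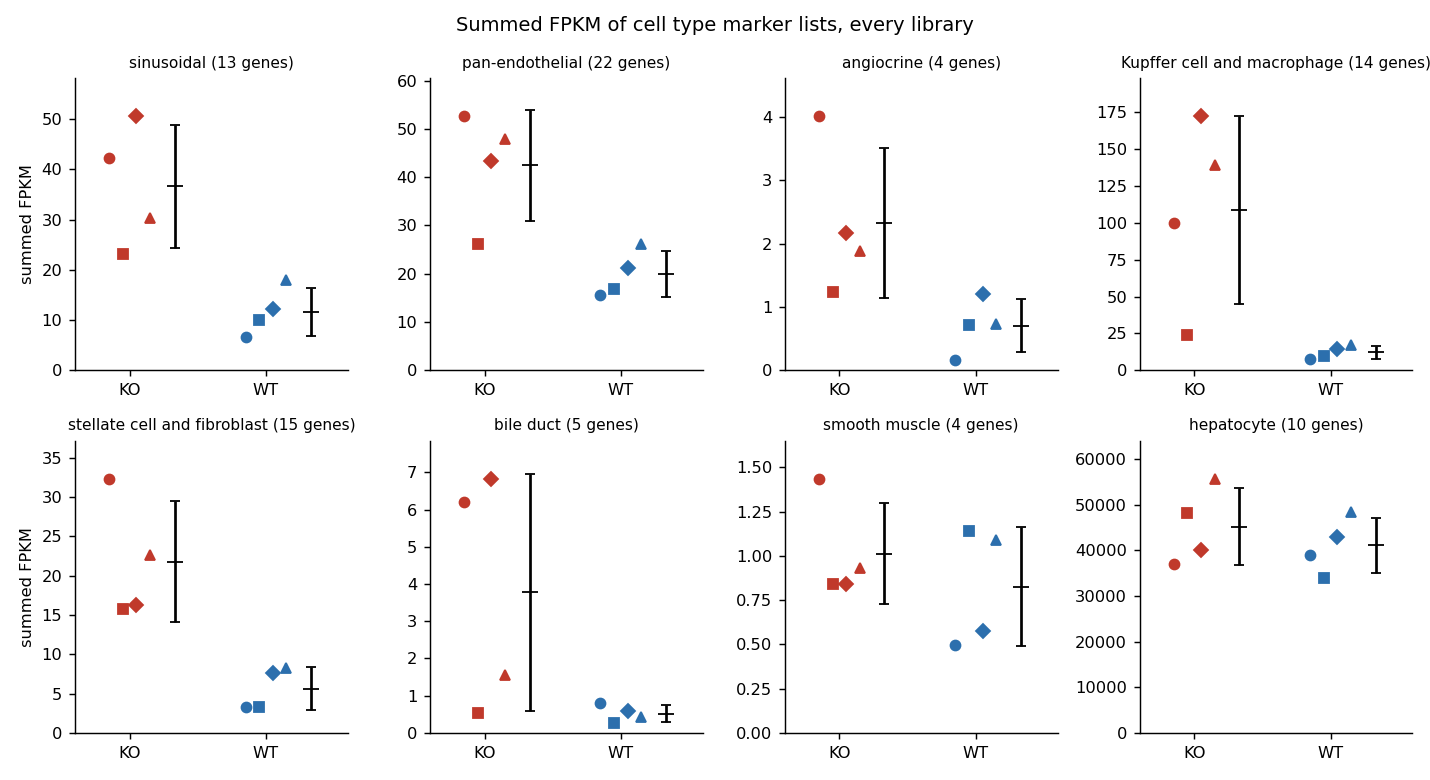
Summed FPKM (y axis, from 0, a scale for each list) of 8 marker lists in KO (red, left) and WT (blue, right) libraries; symbols mark libraries 1 to 4 as circle, square, diamond and triangle, and bars give mean ± SD. Sinusoidal, angiocrine, macrophage and stellate sums are higher in every KO library, with KO 2 the lowest of them, pan-endothelial sums of KO 2 and WT 4 touch, and hepatocyte sums overlap.

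Endothelial genes outside the 39 were read from 2 more lists. Of 29 further endothelial genes listed, 27 were matched by symbol, 7 were tested and 0 passed. Means were higher in KO for 25 of the 27, with every KO library above every WT library in 7 (3.57% of detected genes). Bgn, the proteoglycan biglycan of endothelium and stellate cells, had the smallest p of the 7 tested. It had 8.73, 1.69, 1.85 and 6.88 FPKM in KO, against 0.427, 0.483, 0.551 and 0.570 FPKM in WT (log2 change 1.71 ± 0.41, limma adjusted p = 0.126). With no filter, Cd93 had a smaller limma p than Bgn (adjusted p = 0.132 and 0.251). Cd93 averaged 0.457 ± 0.138 FPKM in KO and 0.0837 ± 0.0569 FPKM in WT, with separated groups. Icam1, the leukocyte adhesion molecule that hepatocytes also make, was the 1 gene of this list with every KO library below every WT library (2.43% of detected genes). It averaged 1.17 ± 0.417 FPKM in KO and 2.17 ± 0.226 FPKM in WT (limma adjusted p = 0.329). Icam1 is given after its values were seen. Of 20 endothelial transcription factor and Notch genes, 6 were tested and 0 passed, and the median log2 change of those tested was -0.09. Means were higher in KO for 16 of the 20 and lower for 4. Every KO library was above every WT library in 2 (3.57% of detected genes) and below in 1 (2.43% of detected genes). Klf2, the flow-responsive factor, had the smallest p, with 2.62, 1.08, 3.71 and 2.35 FPKM in KO, against 0.640, 0.282, 0.809 and 0.774 FPKM in WT (log2 change 1.03 ± 0.26, limma adjusted p = 0.138). Jag1, a Notch ligand, was the gene with every KO library below, at 0.123 to 0.385 FPKM in KO and 0.407 to 0.652 FPKM in WT, and was not tested because of its low level. Hhex, a homeobox factor that hepatocytes also express, averaged 12.2 ± 1.88 FPKM in KO and 16.4 ± 2.08 FPKM in WT (limma adjusted p = 0.484). Jag1 and Hhex are given after their values were seen.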

How the data were processed

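Whole liver RNA of 4 KO and 4 WT libraries was measured by RNA sequencing. The authors deposited 1 table of FPKM values for 35638 gene IDs, of which 99.4% matched the GENCODE annotation of GRCm38. TopHat, edgeR and mm10 are named, per the submitters' processing notes, without versions or roles. Which program made the FPKM values, and whether it used strand, is not given in the sources used here. The unit holds no read counts. Depth was estimated from 12059 genes with a single transcript, where 53.2 to 56.7% of low values lay within 0.1 reads of a whole number, against 20% by chance, so reads per gene are estimates and no count test was run.

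Groups followed the genotype labels. Genes with a mean of at least 1 FPKM were fitted as log2(FPKM + 1) with limma 3.58.1 in R 4.3.3 (genotype alone, trended variance), with Benjamini-Hochberg adjustment over 11266 genes and a threshold of 0.05, after a test of the script on simulated data. Lower members had an exact two-sided permutation test of mean FPKM over 70 splits, smallest p 0.0286, which 6 of these 19 members reached and which is not adjusted. SDs and n = 4 describe libraries. Pseudocounts, filters, scalings, weights, a replicate block and libraries left out were tried as alternatives.

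The members and lists were chosen with earlier results of these data known. All members are accounted for. Values in every library are given for the ligands and for members past the threshold. They are also given for the 2 members with the smallest p in each role (limma with no filter). Pathway genes past the threshold, or with the smallest p among those tested in a list, are named. The other pathway genes and the cell type genes named with values were picked after their values were seen. Members with library values outside this rule (Nrp1, Ramp2, Pecam1, Lyve1, Vwf) were picked after their values were seen. Annotation overlaps come from GENCODE and promoters from RefSeq (GRCm38.p6). Figures were drawn with matplotlib 3.10.9.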

Additional observations from a re-analysis of the deposited data

Results flagged for a closer look

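In 10 of the 126 groups of 4 libraries examined, the highest or lowest library stood far from the others. The groups covered members, a part of the named pathway and cell type genes, Arid1a and list sums. Chance flags about 1 in 20 such groups. Maf reached 13.5 FPKM in KO 3, while the other KO libraries had 3.83, 3.91 and 5.21 FPKM. KO 2 stood low for Ptprb, at 1.78 FPKM beside 3.98, 4.03 and 4.18 FPKM in the other KO libraries, and for Icam1, at 0.544 FPKM beside 1.37, 1.38 and 1.38 FPKM. WT 4 stood high for Gata4, at 2.65 FPKM beside 0.275, 0.279 and 0.454 FPKM in the other WT libraries, and for Ramp2, at 6.94 FPKM beside 5.61, 5.78 and 5.81 FPKM. WT 4 also stood high for Oat, at 148.7 FPKM beside 58.8, 66.6 and 68.3 FPKM in the other WT libraries. WT 3 stood high for Reln, at 2.43 FPKM beside 0.760, 0.826 and 0.993 FPKM in the other WT libraries. In WT, Wnt9b at 0.0534 FPKM and Emcn at 0.0285 FPKM were above 0 in WT 4 alone, and Lyve1 at 0.0986 FPKM in WT 3 alone.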

How the results depend on the processing

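No member was called lower in KO under any setting run. The number called higher, 1 in the fit reported, was 0 with a pseudocount of 5 FPKM, with no filter (39 members fitted), with a mean of at least 5 FPKM (2 members fitted, Nrp1 and Ramp2) and with equal sums, and 2 with array weights (Fcgr2b joined Dnase1l3). It ranged from 0 to 8 with 1 library left out, 8 being without KO 2, and was 5 without KO 2 and WT 4 together, an alternative chosen after seeing the data. The limma adjusted p of Dnase1l3 ran from 0.00834 to 0.132 over these settings. The median change of tested members, 1.01, was 1.70 with a pseudocount of 0.1 FPKM, 0.40 with one of 5 FPKM and 0.094 at a mean of at least 5 FPKM, where fewer members were fitted. Over all genes, 46 higher calls became 27 with a pseudocount of 5 FPKM, 14 at a mean of at least 5 FPKM, 71 without KO 2 and WT 4 together and 20 to 90 with 1 library left out. The 40 lower calls became 26 with no filter, 13 at a mean of at least 5 FPKM and 14 to 44 with 1 library left out. Apart from the pseudocounts, fewer genes or fewer libraries, the cause of these shifts was not tested. With equal sums the median of all genes moved to -0.12, and the median of the tested members was 0.94.

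The fit reported did not pair libraries by replicate number. Same-numbered libraries correlated at -0.0668 (replicate 2) to 0.25 (replicate 4) in their deviations from the group means. Of the 8 libraries, 4 correlated best with their own number. These values do not settle whether the numbers pair the libraries. With a replicate block, 0 members were called (smallest limma adjusted p = 0.108), 16 genes were higher and 8 lower. Members under about 10 reads, Wnt2 and Wnt9b among them, are limited by depth.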
